A study of Mus musculus with 8 samples.

Results

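The Nr4a family comprises 3 orphan nuclear receptors, Nr4a1 (also Nur77), Nr4a2 (Nurr1) and Nr4a3 (Nor1), and their mRNAs were followed over a time course of macrophage activation. The genes were taken by symbol, 3 of 23141 genes with a row in the count table. The cells were RAW264.7, an established mouse macrophage line, and the labels name no genetic change in any of the 8 cultures. The 0 min culture was untreated, and the other 7 received 100 ng/ml LPS, the lipopolysaccharide of the outer membrane of Gram-negative bacteria, for 15, 30, 45, 60, 75, 90 or 120 min. With a single library at each time, no replicate stands behind any difference. A single cell line stands for the macrophage here, and a change in the share of responding cells cannot be told apart from a change in RNA per cell.

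Nuclear receptors are transcription factors that usually bind a small lipophilic ligand, such as a steroid, retinoid or thyroid hormone. Nr4a proteins are called orphans because their ligand pocket is filled by bulky side chains, and their activity is thought to be set mainly by how much protein is made. They bind DNA as monomers at a response element named NBRE or as dimers, Nr4a1 and Nr4a2 also together with retinoid X receptors. Their genes belong to the immediate early genes, which are transcribed without prior protein synthesis, like those of the AP-1 factors Fos and Jun and the Egr zinc finger factors. CREB, which binds the cAMP response element (CRE), MEF2 and SRF are textbook regulators of immediate early transcription, and in macrophages Nr4a proteins are known to restrain inflammatory gene expression.

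The sequence before the transcription start is shown first because the same short element recurred in all 3 genes. The following sequences are from RefSeq on GRCm38, written 5′ to 3′ on the strand of the gene, with the CRE core TGACG or its reverse complement CGTCA in capitals. Nr4a1 lies on the plus strand and the window is chr15:101266596-101266845, Nr4a2 on the minus strand with chr2:57124004-57124253, and Nr4a3 on the plus strand with chr4:48045055-48045152.
Nr4a1: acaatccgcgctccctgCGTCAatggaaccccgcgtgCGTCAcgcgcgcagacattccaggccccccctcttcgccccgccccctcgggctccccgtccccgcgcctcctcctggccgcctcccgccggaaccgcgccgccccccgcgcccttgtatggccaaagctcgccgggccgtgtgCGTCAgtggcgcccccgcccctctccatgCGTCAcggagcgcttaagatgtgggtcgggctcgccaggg
Nr4a2: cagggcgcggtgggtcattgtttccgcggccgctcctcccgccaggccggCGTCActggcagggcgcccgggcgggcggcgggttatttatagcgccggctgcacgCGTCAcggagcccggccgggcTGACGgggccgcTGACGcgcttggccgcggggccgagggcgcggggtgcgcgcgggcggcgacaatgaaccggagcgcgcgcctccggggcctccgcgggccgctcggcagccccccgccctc
Nr4a3: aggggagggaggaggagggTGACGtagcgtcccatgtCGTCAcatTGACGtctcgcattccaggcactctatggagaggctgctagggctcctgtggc
For Nr4a3 only 98 of the 250 bases are printed, because the other 152 lie within the first exon of the matched transcript as GENCODE annotates it. The RefSeq gene span of Nr4a3 starts further upstream, at 48045078, so that part of the printed stretch lies within that span.

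Counted on both strands over 250 bases before 1 RefSeq start per gene, each of the 3 windows held 4 CRE cores. Other starts were not scanned. One Nr4a2 transcript starts at 57115038, far downstream of the window used, and the RefSeq gene span of Nr4a1 begins at 101253902, upstream of its window. The cores began at positions -233, -213, -69 and -40 for Nr4a1, at -200, -144, -123 and -111 for Nr4a2, and at -231, -213, -205 and -147 for Nr4a3. The last core of Nr4a3 lay within the first exon annotated by GENCODE. All cores of Nr4a3 except the one at -231 began within the RefSeq gene span. At least 1 core was found in 17.8% of 32851 RefSeq promoter windows of this length, and at least 4 in 45 windows (0.137%). The 3 windows are rich in G and C (74.4%, 80.0% and 63.6%, against a median of 52.4%), and of the 9178 windows with at least 60% G and C, 0.370% held at least 4 cores. The full palindrome TGACGTCA, present in 1.55% of windows, was in none of the 3. The same windows contained no NBRE (AAAGGTCA, 1.34% of windows), CArG box (the SRF site, 1.47%) or NF-kB site (3.90%). Nr4a2 had 1 MEF2 site (2.92% of windows) at -167. It overlapped 1 match to the letters TATAAA (12.4%) at -164, which reads on the strand opposite to the gene. The cores were counted after these sequences had been seen, a match is a description of letters, and no binding was measured here.

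**Figure D1:**
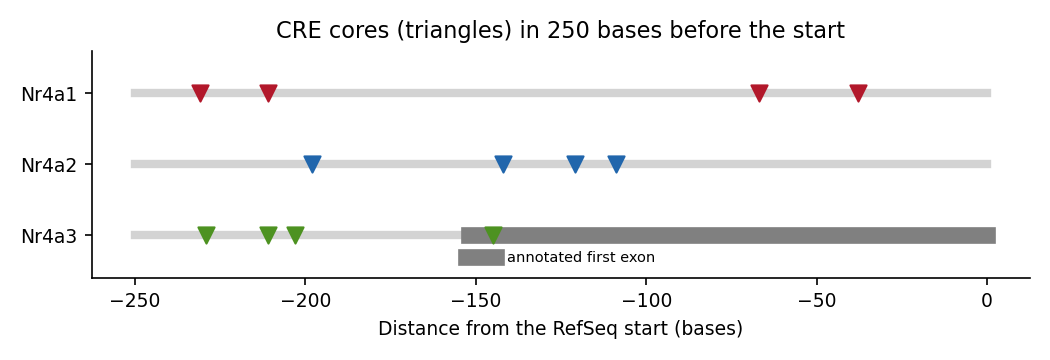
Position of the CRE cores (triangles, centred on the 5-base core) in the 250 bases before the RefSeq start of each gene, with distance from the start in bases on the horizontal axis. Each window holds 4 cores, and the last core of Nr4a3 falls within the first exon as annotated by GENCODE (dark bar).

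The libraries held 100229997 (75 min) to 159036125 (120 min) counts, and a count of 0 in a library allows up to 3 counts, or 0.0189 to 0.0299 cpm (counts scaled to the library total). Levels are given as normalized read counts, that is, counts divided by a size factor of the library, which ranged from 0.710 to 1.23. A gene was called higher or lower in a pair of libraries when the log2 ratio lay beyond 0.5 and the exact negative binomial test of the 2 libraries passed an unadjusted limit of 0.05. The dispersion of this test treated all 8 libraries as one group and therefore contains the changes over time. Intervals in brackets are 95% and cover counting error only, and all ratios to 0 min share the one untreated library. The ribosomal precursor Rn45s took 8.18% to 9.11% of the counts at 0, 30, 60 and 120 min but 12.96% to 20.54% at 15, 45, 75 and 90 min, so ratios within each of these library sets are also given below. All 10 macrophage marker genes were detected, from 7175 normalized counts for Emr1 to 492756 for Lyz2 at 0 min, and none was called at 45 min. At 120 min the LPS coreceptor gene Cd14 was called higher (3.66-fold, 3.62 to 3.69), and the LPS receptor gene Tlr4 (0.486, 0.469 to 0.505) and the Fc receptor gene Fcgr1 (0.381, 0.371 to 0.392) were called lower. The other 7 (Cd68, Csf1r, Itgam, Emr1, Lyz2, Ptprc and Sfpi1) were not called. Among markers of other cell types, Ncr1, Epcam, Col1a1 and Krt14 had no count, and Cd3e, Pecam1 and Tubb3 reached at most 35.5 normalized counts (Tubb3, 90 min).

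Nr4a1 showed the largest rise of the family and the deepest fall after it. In untreated cells 377 reads were counted, and 544 after 15 min of LPS. The 30, 45 and 60 min libraries held 10122, 15146 and 14798 reads, and those of 75, 90 and 120 min held 3021, 1142 and 458. After scaling these were 323, 518, 8288, 17106, 13176, 4254, 1450 and 371 normalized counts. The 30, 45 and 60 min libraries were high, the 75 and 90 min libraries were intermediate, and the 120 min library was back near the untreated one.

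Compared with 0 min, Nr4a1 was 1.61-fold (1.40 to 1.84) at 15 min, which was not called because the fitted dispersion corresponds to a spread of 17.0% between libraries in addition to counting error. It was called higher from 30 to 90 min. The increase was 25.7-fold (23.2 to 28.6) after 30 min, 53.0-fold (47.9 to 58.9) after 45 min and 40.9-fold (36.9 to 45.4) after 60 min of LPS. It was still 13.2-fold (11.8 to 14.7) in the 75 min library and 4.50-fold (4.0 to 5.06) in the 90 min library. At 120 min the ratio was 1.15 (1.0 to 1.32) and not called. Between 15 and 30 min the level rose 16.0-fold (14.7 to 17.5), and between 30 and 45 min by a further 2.06-fold (2.01 to 2.12). Between 45 and 60 min the ratio was 0.770 (0.753 to 0.788), which was not called. From 60 to 75 min the level fell to 0.323 (0.310 to 0.336) of its value, from 75 to 90 min to 0.341 (0.318 to 0.365) and from 90 to 120 min to 0.256 (0.229 to 0.286). Within the 4 libraries of low Rn45s share, the ratios to 0 min were the 25.7, 40.9 and 1.15 given above. Within the 4 of high share, Nr4a1 was 33.0-fold (30.3 to 36.1) higher at 45 min, 8.22-fold (7.50 to 9.02) at 75 min and 2.80-fold (2.53 to 3.11) at 90 min than at 15 min, so that a rise and a fall were called in both sets.

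**Figure D2:**
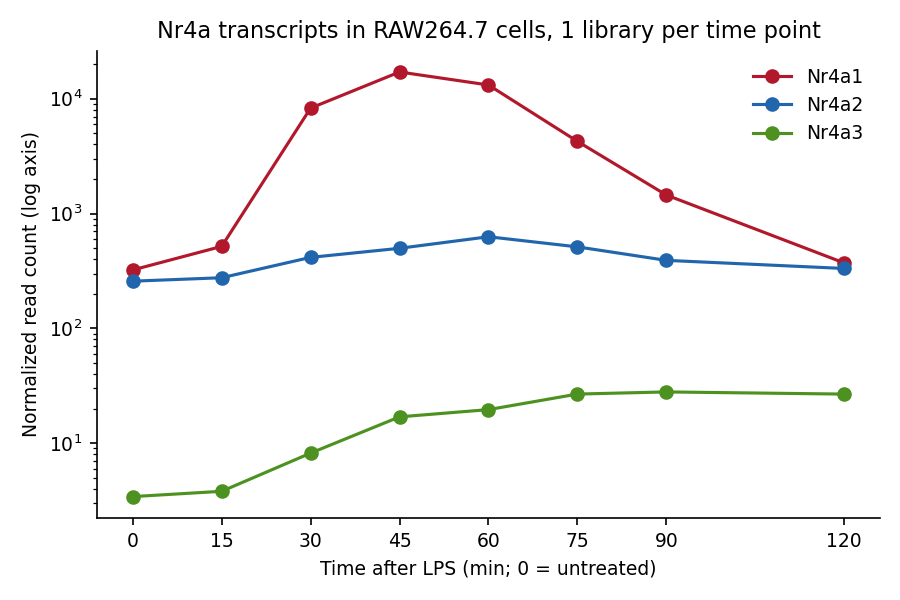
Normalized read counts (log axis) of Nr4a1, Nr4a2 and Nr4a3 against time after LPS in min, with 1 library per point. Nr4a1 climbs to 17106 at 45 min and is back at 371 at 120 min, Nr4a2 stays between 257 and 628, and Nr4a3 stays below 28.

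Nr4a2, best known for its role in dopaminergic neurons, changed less. Its counts were 301, 290, 507, 441, 705, 364, 308 and 410 in the order of time, corresponding to 257, 276, 415, 498, 628, 513, 391 and 332 normalized counts. The level was highest at 60 min, 15 min later than that of Nr4a1, although the 60 and 45 min libraries were not called different (ratio 1.26, 1.12 to 1.42). Nr4a2 was called higher than at 0 min at 45 min (1.93-fold, 1.67 to 2.25), 60 min (2.44-fold, 2.13 to 2.80) and 75 min (1.99-fold, 1.70 to 2.33). The ratios at 15, 30, 90 and 120 min were 1.07, 1.61, 1.52 and 1.29 and were not called. From 60 to 120 min the level fell to 0.529 (0.468 to 0.599). Among the libraries of low Rn45s share, the 60 min library was called higher than 0 min and 120 min was called lower than 60 min. Among those of high share, 45 min (1.8-fold, 1.55 to 2.10) and 75 min (1.86-fold, 1.59 to 2.17) were called higher than 15 min, and 90 min (1.42-fold, 1.20 to 1.67) was not.

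Nr4a3 was close to the limit of detection and had no called decline by 120 min. Only 4, 4, 10, 15, 22, 19, 22 and 33 reads were counted in the order of time, or 3.42, 3.81, 8.19, 16.9, 19.6, 26.8, 27.9 and 26.7 normalized counts. The untreated and the 15 min libraries were low, the 30 min library lay between, and the libraries from 45 min on were high without a later decline. Nr4a3 was called higher than at 0 min from 45 min on. The ratios were 4.95 (1.58 to 20.5) after 45 min, 5.72 (1.94 to 22.9) after 60 min, 7.82 (2.6 to 31.6) after 75 min, 8.16 (2.77 to 32.6) after 90 min and 7.82 (2.78 to 30.4) after 120 min. The width of these intervals reflects the 4 reads at 0 min, and the libraries from 45 to 120 min were not called different from each other. Relative to 15 min, Nr4a3 was called higher at 45 min (4.45-fold, 1.42 to 18.4), 75 min (7.03-fold, 2.34 to 28.4) and 90 min (7.34-fold, 2.49 to 29.3), all libraries of high Rn45s share. The calls of Nr4a3 were lost when genes with a mean of at least 10 normalized counts were tested alone.

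**Figure D3:**
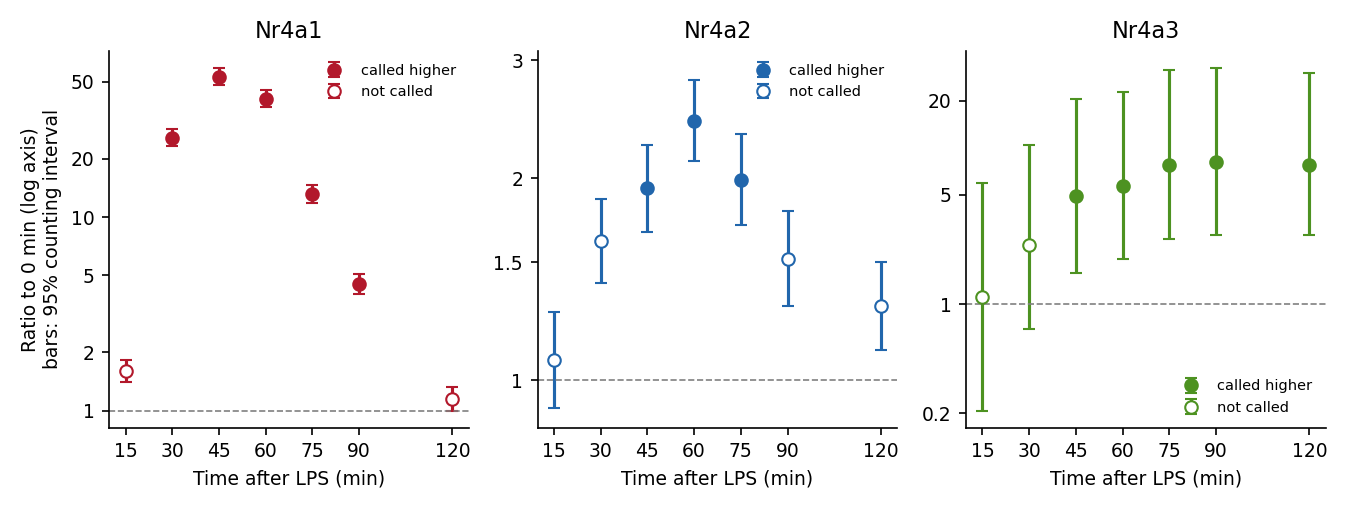
Ratio to the 0 min library (log axes of different range) at each time after LPS in min, with 95% counting intervals as bars. Filled points were called higher and open points were not: Nr4a1 from 30 to 90 min with 53.0-fold at most, Nr4a2 from 45 to 75 min with 2.44-fold at most, and Nr4a3 from 45 min on with wide intervals.

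These calls have to be read against those of all genes. Of 16965 genes with counts, 0.265% were called higher than 0 min at 15 min, when no Nr4a gene was, and 1.04% at 30 min, when Nr4a1 was. At 45 min all 3 Nr4a genes were called higher, against 3.42% of all genes, and again at 60 min (3.14%) and at 75 min (4.30%). Of the 35 other genes with counts and at least 4 CRE cores before their start, 4 (11.4%) were called higher at 45 min, namely Braf, Coq10b, Dusp8 and Trp53inp2, which were named after their values were seen. At 90 min Nr4a1 and Nr4a3 were called higher (5.24% of genes), and at 120 min Nr4a3 only (7.05%). For the later decline, 0.955% of genes were called lower at 60 min than at 45 min, none of the 3 among them. At 120 min Nr4a1 was called lower than at 45 min, at 0.0217 (0.0197 to 0.0238) of that level, as were 5.58% of all genes, while Nr4a2 at 0.667 (0.582 to 0.765) was not called and Nr4a3 was at 1.58 (0.834 to 3.13). Compared with 60 min, 3.44% of genes were called lower at 120 min, including Nr4a1 and Nr4a2.

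According to successive maxima and minima, the study defined a group without change (g0), late first maximum (g1), late first minimum (g2), early maximum followed by a minimum (g3) and early minimum followed by a maximum (g4), early meaning before 60 min. The same rules were applied anew to the 16965 genes with counts, so that group sizes given here are not those of the study. Nr4a1 had a maximum at 45 min and a minimum at 120 min and was a g3 gene, one of 137 (0.808% of genes tested). Only 4 of these 137 had a larger ratio of 45 min to 0 min. At 120 min, 59 of the 137 g3 genes were within the log2 limit of 0.5 of the untreated level, Nr4a1 included, and the median g3 ratio was 1.27. Nr4a2 (maximum at 60 min, minimum at 120 min) and Nr4a3 (maximum at 90 min, no minimum) were g1 genes, which numbered 1235 (7.28%). Among g1 genes, 107 had their first maximum at 60 min like Nr4a2 and 151 at 90 min like Nr4a3, whereas 873 reached it only in the 120 min library. The time of the Nr4a3 maximum is not resolved, because its libraries from 45 to 120 min were not called different from each other.

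To compare the 3 mRNAs with each other, counts were divided by the number of unique 58-base stretches of their transcripts and by the library total (RPKM). Per length, Nr4a1 exceeded Nr4a2 and Nr4a2 exceeded Nr4a3 in all 8 libraries, with intervals that did not overlap. Nr4a1 was at 1.19 RPKM (1.07 to 1.32) at 0 min, 55.4 (54.5 to 56.3) at 45 min and 1.19 (1.08 to 1.30) at 120 min. Nr4a2 was at 0.623 RPKM (0.555 to 0.698) at 0 min, 1.42 (1.32 to 1.53) at 60 min and 0.699 (0.633 to 0.771) at 120 min. Nr4a3 was at 0.00539 RPKM (0.00147 to 0.0138) at 0 min and at 0.0366 (0.0252 to 0.0515) at 120 min. The summed RPKM of the family went from 1.82 at 0 min to 56.5 at 45 min and 1.93 at 120 min. Nr4a1 made up 65.4% of this sum at 0 min, 98.1% at 45 min and 61.8% at 120 min, and Nr4a2 made up 34.3%, 1.87% and 36.3%. The ratio of Nr4a1 to Nr4a2 thus moved from 1.91 to 52.3 and back to 1.70. The ratio of Nr4a2 to Nr4a3 decreased from 116 at 0 min to 45.2 at 45 min and 19.1 at 120 min.

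**Figure D4:**
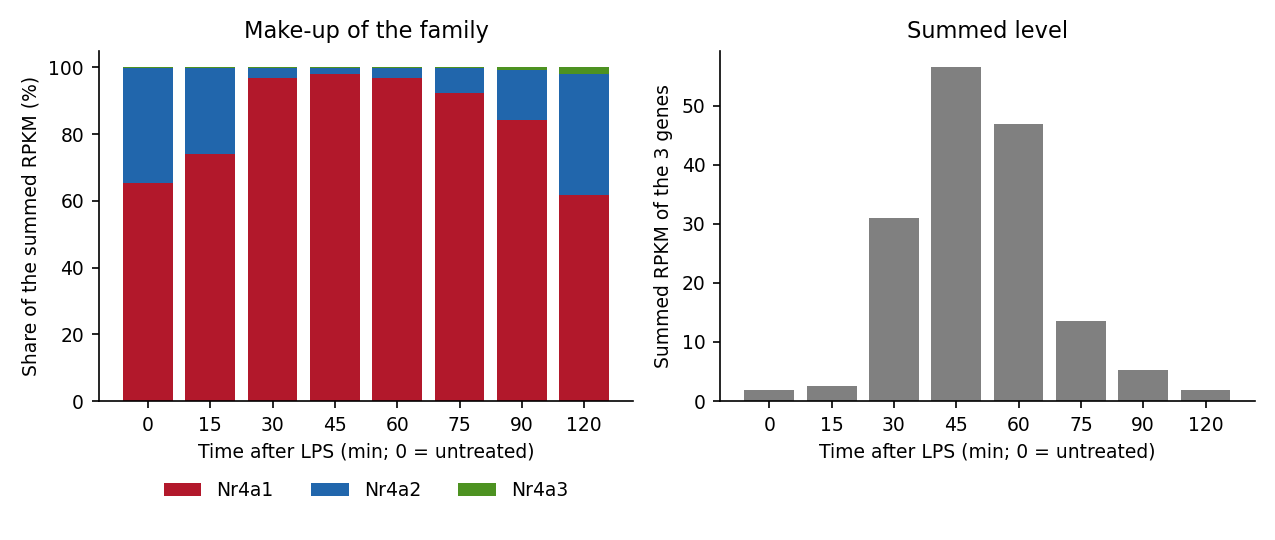
Left, share of each Nr4a gene in the summed RPKM of the family (%), and right, the summed RPKM, for each time after LPS in min, with 1 library per bar. Nr4a1 takes 98.1% of the sum at 45 min, when the sum is 56.5, and the shares of Nr4a1 and Nr4a2 at 120 min are near those at 0 min, while Nr4a3 has 0.297% at 0 min and 1.90% at 120 min.

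The transcripts that were counted differ in structure. Nr4a1 is a transcript of 2477 bases in 7 exons (chr15:101266846-101274795), with a 3′ untranslated region (UTR) of 543 bases. Nr4a2 has 2 RefSeq transcripts of 8 exons each on chromosome 2, both with a 3′ UTR of 1326 bases. One spans 57106830-57115038 and the other 57106830-57124003, and the window printed above precedes the start of the longer span only. Nr4a3 is a transcript of 5720 bases in 8 exons (chr4:48045153-48086445) and has a 3′ UTR of 3093 bases. None of their 58-base stretches was shared with another gene, so that reads of the 3 paralogs can be kept apart. The AU-rich pentamer AUUUA, the core of elements that are known to destabilize mRNAs, occurred 3 times in the 3′ UTR of Nr4a1, 3 times in that of Nr4a2 and 5 times in that of Nr4a3. The density per kilobase was 5.52 for Nr4a1, 2.26 for Nr4a2 and 1.62 for Nr4a3, compared with a median of 1.25 over 11276 genes. A density at least as high was found in 4.93%, 29.9% and 42.0% of these genes, whereas at least as many pentamers were found in 35.2%, 35.2% and 20.4%. The ranking of the 3 genes thus depended on whether the length of the 3′ UTR was taken into account, and mRNA stability was not measured.

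Across the 8 time points, the log2 profiles of Nr4a1 and Nr4a2 were more alike (Pearson's r = 0.895) than those of Nr4a2 and Nr4a3 (r = 0.667) or Nr4a1 and Nr4a3 (r = 0.370). These coefficients describe 8 libraries that share depth and scaling, and no test was made. Among 350 genes with a mean of at least 100 normalized counts and a highest level at least 4 times the lowest, the genes most like each receptor were then listed. Nr4a1 was followed most closely by Chac1 (r = 0.975), which degrades glutathione, the small GTPase gene Gem (0.960), the synaptic immediate early gene Arc (0.925), the mTORC1 inhibitor gene Ddit4 (0.916) and Egr1 (0.889). All 5 had their highest level at 45 min, between 5.46-fold (Chac1) and 40.6-fold (Egr1) of 0 min, which is less than for Nr4a1. At 120 min they ranged from 0.451-fold (Ddit4) to 6.40-fold (Egr1).

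Nr4a2 was most like Mybpc3 (r = 0.970), a sarcomere protein gene, the pseudokinase gene Trib1 (0.965), Insig1 (0.953), which retains the sterol sensor in the endoplasmic reticulum, Ier5 (0.939) and Egr3 (0.937), all with their highest level at 60 min. They ranged from 3.52-fold (Insig1) to 8.30-fold (Egr3) at 45 min, where the limit on the highest level had admitted only genes with larger changes than Nr4a2. Nr4a3 was most like Gadd45a (r = 0.997), a gene of the DNA damage response, the C-type lectin gene Clec4e (0.993), the cell cycle inhibitor gene Cdkn1a (0.993), the histone demethylase gene Kdm6b (0.993) and Zc3h12a (0.992), which encodes the RNase Regnase-1. These genes stayed high until the end, from 5.22-fold (Cdkn1a) to 36.2-fold (Kdm6b) at 120 min. Because all these genes were picked by likeness in the same libraries, a course similar to that of the receptor follows from the choice. The lists for Nr4a1 and Nr4a3 depended on the measure of likeness. Nr4a3 itself had a mean of 16.7 normalized counts, below the mean of at least 100 required of the compared genes. Its profile rests on 4 reads at 0 min and 33 at 120 min. Counting error was not carried into r, so the high coefficients beside Nr4a3 do not show a closer likeness than those of the other receptors.

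**Figure D5:**
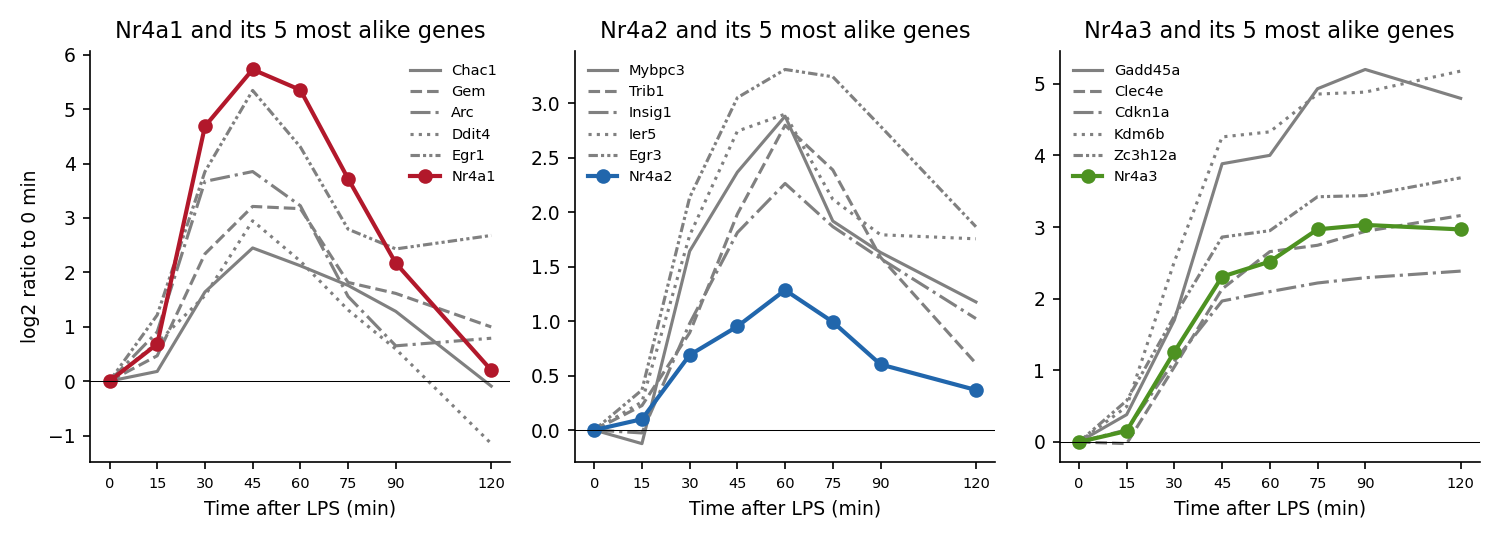
Log2 ratio to 0 min against time after LPS in min for each Nr4a gene (coloured) and the 5 genes most like it (grey). The genes beside Nr4a1 are highest at 45 min, those beside Nr4a2 at 60 min, and those beside Nr4a3 remain high until 120 min. The genes were picked for this likeness in the same libraries.

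The other immediate early genes provide a comparison at the same time points. All 7 AP-1 genes were called higher at 45 min (3.42% of all genes), with a median log2 ratio of 2.63 against 0.00 for all genes. Jun rose 35.2-fold (34.2 to 36.4), Fosb 233-fold (118 to 540), Junb 10.3-fold, Fos 6.20-fold, Fosl1 4.73-fold, Fosl2 4.16-fold and Jund 3.05-fold. Like Nr4a1, Fos, Fosb, Jun and Junb were g3 genes with their highest level at 45 min. At 120 min their levels differed, since Fos was called lower than at 0 min (0.240, 0.229 to 0.251), Jun was at 0.736 (0.703 to 0.771) and not called, and Fosb (20.4-fold, 10.1 to 47.9) and Junb (8.64-fold, 8.5 to 8.78) were still called higher. Fosl1, Fosl2 and Jund were g1 genes like Nr4a2 and Nr4a3, and were 8.21-fold, 3.91-fold and 3.27-fold higher at 120 min. Of the 4 Egr genes, Egr1 (40.6-fold, 31.2 to 53.8), Egr2 (13-fold, 12.4 to 13.7) and Egr3 (8.30-fold, 7.07 to 9.79) were called higher at 45 min, and Egr4 had no count at 0 min and at most 1.41 normalized counts. Egr1 was a g3 gene but remained 6.40-fold (4.84 to 8.61) higher at 120 min, Egr3 3.65-fold and Egr2 15.9-fold.

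Of 46 other nuclear receptor genes, 40 had counts. At 45 min 3 of them (7.50%) were called higher and 1 (2.50%) lower, against 3.42% and 1.36% of all genes. At 120 min 3 (7.50%) were higher and 4 (10.0%) lower, against 7.05% and 6.18%. At 45 min these were Rorb (4.67-fold, 2.59 to 8.91, from 12.8 normalized counts), the mineralocorticoid receptor gene Nr3c2 (2.49-fold, 1.52 to 4.17, from 22.2) and the germ cell nuclear factor gene Nr6a1 (1.96-fold, 1.71 to 2.23), while the corepressor gene Nr0b2 was at 0.577 (0.521 to 0.638). At 120 min Rorb, Nr6a1 and the circadian repressor gene Nr1d1 (3.53-fold, 3.0 to 4.17) were higher. Nr0b2 (0.264), the retinoic acid receptor genes Rarb (0.289) and Rara (0.378) and the oestrogen-related receptor gene Esrra (0.578) were lower. The median log2 ratio of the 23 receptors with at least 10 normalized counts was 0.15 at 45 min and -0.19 at 120 min, against 0.00 and -0.01 for all 12164 such genes. Nr3c2 was the only other receptor gene of the g3 group.

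Of 13 genes for regulators known to act on Nr4a transcription, 2 (15.4%) were called higher at 45 min, against 3.42% of all genes, namely Srf (1.76-fold, 1.72 to 1.81) and the NF-kB subunit gene Rela (2.01-fold, 1.93 to 2.10). At 120 min Srf (2.4-fold), Rela (2.20-fold), Nfkb1 (2.49-fold) and the CREB family gene Crem (1.73-fold) were higher, and Hdac7, which encodes a deacetylase recruited by MEF2, was lower (0.178, 0.0332 to 0.621, from 16 reads). These are 4 of 13 higher and 1 lower (30.8% and 7.69%), against 7.05% and 6.18% of all genes. The genes of CREB itself, its coactivators Crtc1 to Crtc3 and the 3 listed MEF2 genes (Mef2a, Mef2c and Mef2d) were not called at 45 or 120 min. The CREB family gene Atf1, a g1 gene, was at 1.52-fold at 45 min and 1.56-fold at 120 min, not called at either time. Of 12 partner and cofactor genes with counts, including the retinoid X receptors, none was called at 45 min, and Ncoa3, a coactivator gene, was lower at 120 min (0.620, 0.599 to 0.641). With 3.42% of all genes higher and 1.36% lower at 45 min, a count of 0 among 12 genes does not set them apart. Of 6 genes known to be activated by Nr4a proteins in other tissues or in macrophages, Th and Slc6a3 had no count, and Slc18a2 and Cyp21a1 had at most 2.26 normalized counts. Pomc, from 35.9 normalized counts, was at 0.849-fold at 45 min and 1.31-fold at 120 min and was not called. Ikbke, a kinase gene reported as an Nr4a1 target in macrophages, had a ratio of 1.5 (1.41 to 1.59) at 45 min, which was not called. It was called higher at 60 min (2.20-fold) and at 120 min (8.12-fold, 7.75 to 8.51).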

How the data were processed

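Libraries were made from rRNA-depleted RNA of RAW264.7 cells with a strand-specific kit, 1 library per time point, and sequenced at a core facility. The authors mapped the 58-base reads with Bowtie (version not given in the sources used here), allowing 2 mismatches, to RefSeq transcripts of mm10, and discarded reads matching more than 1 gene symbol. The authors deposited raw counts per gene symbol. The submitters' processing notes list CASAVA 1.8.2 and DESeq 1.10.1. The labels give the RNA fraction as cytoplasmic, whereas the methods describe total RNA.

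The members and gene lists were chosen with earlier results of these data known. The rows of 2 spike-in transcripts were left out of library totals and tests (0.0208% to 0.0316% of counts). The study's DESeq settings were followed, with median-of-ratios size factors and a dispersion of 0.0287 plus 0.853 divided by the mean. An exact negative binomial test with doubled smaller tail was computed for all 28 pairs of 8 libraries. The code ran under numba 0.67.0, scipy 1.17.1, pandas 2.3.3 and numpy 2.4.6 in Python 3.11.15 and was tested on simulated data. The simulation used a lower dispersion and changed only genes of higher counts than Nr4a3, so calls at such low counts were not checked. 1 library per group leaves a quasi-likelihood test without residual degrees of freedom, so that libraries and not conditions were compared, and no p-value is printed. Ratios have exact conditional binomial intervals and RPKM values exact Poisson intervals. The 58-base stretches, UTRs and pentamers come from GENCODE vM21 transcripts matched by RefSeq accession, which may differ from the tables used by the authors. Likeness is Pearson's r of log2(normalized count + 1). Genes named are the 3 receptors, the 5 genes most like each, all listed genes called against 0 min at 45 or 120 min, the AP-1 and Egr genes and the cell markers (Spi1 is listed as Sfpi1), except 1 marker that is not reported here. Listed genes outside this rule are named where they describe a list. Alternatives were TMM factors of edgeR 4.0.16, total counts with and without Rn45s, the dispersion trend of DESeq2 1.42.0 (R 4.3.3), a log2 limit of 1, Benjamini-Hochberg adjustment, a mean normalized count of at least 10, each LPS library left out, other length, scale and likeness measures and, chosen after the data were examined, spike-in counts as the scale and the 0, 30, 60 and 120 min libraries alone. The microarrays of the study were not analysed here.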

Additional observations from a re-analysis of the deposited data

How the results depend on the processing

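The DESeq2 dispersion trend, a limit of 1, Benjamini-Hochberg adjustment and a mean of at least 10 left the ratios themselves unchanged. Under these settings only calls could differ, and a limit of 1 or adjustment could only remove them. Of 216 combinations of a receptor ratio with another setting, 196 kept their direction and call. For Nr4a1, 70 of 72 did, and the other 2 were stronger: the log2 ratio of 0.68 at 15 min was called with the DESeq2 dispersion trend and after removing genes of a mean normalized count below 10. For Nr4a2, the calls at 45 and 75 min were lost with total counts (log2 ratios of 0.76 and 0.66) and, at log2 ratios of 0.95 and 0.99, with a limit of 1 or Benjamini-Hochberg adjustment, so that only 60 min kept its call in all settings. For Nr4a3, Benjamini-Hochberg adjustment removed the calls at 45, 60, 75 and 90 min (log2 ratios of 2.31, 2.52, 2.97 and 3.03), removing genes below a mean of 10, with the dispersion refitted, removed these and the call at 120 min (2.97), which moved the gene to group 0, and the DESeq2 trend removed the call at 45 min (2.31). With spike-in counts as the scale, the log2 ratio of 60 to 45 min, not called, turned to -0.0195 for Nr4a2 and -0.14 for Nr4a3. The cause was not tested. Total counts lowered all log2 ratios to 0 min, by 0.19 at 45 min, 0.33 at 75 min and 0.20 at 120 min, and spike-in counts lowered them by 0.30 at 60 min. With total counts the log2 ratio of Nr4a1 at 120 min was 0.0010. Nr4a1 changed to group 1 without the 45 min library, which held its maximum, and with the 0, 30, 60 and 120 min libraries alone, where no library of 45 min remains. Without any other LPS library the groups of the 3 genes were as reported.

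Counts of genes called higher than 0 min at 45 min were 581, but 298 with total counts, 333 with a limit of 1 and 172 with adjustment, and at 120 min 1196, but 677 with total counts, 755 with total counts without Rn45s, 766 with spike-in counts, 761 with a limit of 1 and 599 with adjustment. At 15 min adjustment left 9 of 45 and at 30 min 72 of 176. At 60 min, 532 became 308 with spike-in counts and 242 with adjustment. At 75 min, 729 became 357, 467 and 307, and at 90 min 889 became 472, 590 and 406, with total counts, a limit of 1 and adjustment. Genes called lower at 60 than at 45 min were 162, but 75 with total counts, 410 with spike-in counts, 68 with a limit of 1 and 14 with adjustment, and at 120 against 45 min 947, but 591 with a limit of 1 and 360 with adjustment. By Spearman's coefficient 3, 4 and 1 of the 5 genes most like Nr4a1, Nr4a2 and Nr4a3 were found again, and by Pearson's on normalized counts 3, 5 and 2. The longest transcript as length or size factors as scale left the RPKM of Nr4a1 at 44.4 and 43.7 at 60 min.

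No paired analysis was possible because each time point has 1 library and the labels give no replicate numbers. Depth limits Nr4a3 most, with 4 reads at 0 min.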
